A study of Rattus norvegicus with 196 samples.

Results

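Th and Slc6a3 are 2 of the 29188 rat transcripts counted in this series. They were chosen as the transcripts named Th (ENSRNOT00000027682) and Slc6a3 (ENSRNOT00000040291) in a supplementary list of the study. That list holds transcripts the study called changed in several brain regions of these samples, so the presence of Th and Slc6a3 in it is not independent evidence that they change. Every other gene analysed by name here was taken from the same list. Calls and medians of such genes are thus not comparable with those over all transcripts, which were not selected in this way. Bulk RNA-seq was carried out on 196 samples of 25 brain regions from male Long-Evans rats aged 2 months, with 98 samples from fluoxetine-treated rats (FT) and 98 from rats given plain water (Sham). FT rats drank fluoxetine, a blocker of serotonin reuptake, at 18 mg/kg per day for 6 weeks. The tissue of 10 animals was pooled for a sample, out of 40 animals per treatment, and the replicates carry the numbers 1, 3, 4 and 5. Every region had 4 FT and 4 Sham samples except the medial preoptic area (mPoA, FT replicates 4 and 5 only) and the arcuate nucleus (Arc, Sham replicates 4 and 5 only). The other regions named here are the ventral tegmental area (VTA), locus coeruleus (LC), raphe, lateral hypothalamus (LH), ventromedial hypothalamus (VMH), periaqueductal grey (PAG), insular cortex (InsularC) and nucleus of the solitary tract (Nts).

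Th encodes tyrosine hydroxylase, the rate-limiting enzyme of catecholamine synthesis, and is made by dopamine, noradrenaline and adrenaline neurons alike. Slc6a3 encodes the dopamine transporter, which returns released dopamine to the terminal and is made by dopamine neurons and not by noradrenaline neurons. The VTA holds the cell bodies of midbrain dopamine neurons, the LC those of noradrenaline neurons, and the Arc holds dopamine neurons that restrain prolactin release. A difference in a bulk sample can come from fewer cells of a type or from less RNA per cell, and these cannot be told apart here.

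Both genes lie on chromosome 1 and were read from RefSeq on the GRCr8 assembly, while the counts were made on rn5, whose coordinates are not used here. Th spans 207500959 to 207508276 and Slc6a3 spans 31537990 to 31578962, both on the minus strand. The bases before each gene are shown because the levels of Th and Slc6a3 moved together over regions. They are written 5′ to 3′ on the gene's strand, and capitals mark matches to a cyclic AMP response element (TGACGTCA), a GC box (GGGCGG, or CCGCCC on the other strand) or the NBRE, a nuclear receptor site (AAAGGTCA, or TGACCTTT on the other strand). The Th window ends 192 bases out, since the rest of the 250 bases of the table lies inside the annotated gene. For Th the window is chr1:207508277-207508468 and for Slc6a3 it is chr1:31578963-31579212.
Th: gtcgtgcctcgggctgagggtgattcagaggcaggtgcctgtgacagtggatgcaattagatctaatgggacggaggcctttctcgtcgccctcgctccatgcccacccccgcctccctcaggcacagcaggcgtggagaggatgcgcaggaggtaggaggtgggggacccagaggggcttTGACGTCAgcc
Slc6a3: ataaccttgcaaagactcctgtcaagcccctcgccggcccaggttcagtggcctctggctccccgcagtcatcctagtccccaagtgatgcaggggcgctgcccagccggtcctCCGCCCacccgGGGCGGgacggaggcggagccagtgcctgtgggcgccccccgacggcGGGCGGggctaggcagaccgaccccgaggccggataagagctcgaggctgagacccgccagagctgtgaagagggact
The Th window held 1 match to the cyclic AMP response element, a motif present in 1.59% of the 33469 rat windows of 250 bases before a start, and no GC box. The Slc6a3 window held 3 GC boxes, a motif present in 30.5% of such windows, and no cyclic AMP response element. Neither window held the NBRE motif, which 1.24% of windows hold. A match describes these letters only. The GC content of the 250 bases was 64.0% for Th and 70.0% for Slc6a3, against a median of 51.2% over all windows.

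Libraries held from 4586 to 50893913 reads assigned to a transcript (median 11921178). The Sham Nts library of replicate 3 was the shallowest, at 4586 reads, and held no read of either gene. The library labelled FT InsularC replicate 1 went against its label. Its counts and those of Sham VTA replicate 1 differed by no more than sampling noise, with a chi-square per degree of freedom of 1.07 over 11274 transcripts. It was the only one of 18915 pairs of libraries with at least 100000 reads that fell below 1.5, and the next closest pair had 5.50. Its correlation with FT InsularC replicates 3, 4 and 5 was -0.149, -0.382 and -0.246, on the scale described below. Th was at 415 CPM (reads scaled to the size of the library) and Slc6a3 at 4.31 CPM in it, against 371 and 5.56 CPM in Sham VTA replicate 1. It is reported below as the library labelled FT InsularC, and the fits of InsularC that rest on it are given with and without it. Libraries also resembled each other by replicate number. After the mean of each number was removed, FT replicates 1 and 3 of a region had a median correlation of 0.806 and FT replicates 4 and 5 one of 0.777, whereas replicates 1 and 4 had 0.434. In Sham the same 3 values were 0.705, 0.699 and 0.428. These correlations are over the 5838 transcripts with the highest mean and describe the libraries. What set them was not tested, so values are given by replicate number below.

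Th in Sham rats was highest in the VTA and high in the LC, Arc and raphe, and Slc6a3 was highest in the VTA and Arc. Levels are CPM, the reads of a transcript scaled to the size of its library, on 1 TMM scale over all 196 libraries. Th reached 371, 426, 155 and 260 CPM in the VTA libraries of replicates 1, 3, 4 and 5. The VTA was the region with the most Th in each of the 4 replicates of Sham. In the LC the values were 317, 243, 48.9 and 24.2 CPM, in the same order. The LC libraries of replicates 1 and 3 were thus several times above those of replicates 4 and 5. The Arc held 93.6 and 58.9 CPM in replicates 4 and 5. The raphe held 188 and 129 CPM in replicates 1 and 3 but only 2.60 and 6.04 in replicates 4 and 5. The raphe libraries thus fell into a high and a low pair. The VMH and LH were more even, from 17.0 to 25.7 CPM and from 14.1 to 22.9 CPM. The lowest VTA library lay above every Arc library, while the VTA overlapped the LC and the raphe. Further neighbours in the order by median (VMH, LH, PAG, then the habenula, HB) overlapped each other. From there the means fell from 8.79 ± 6.72 CPM in the HB and 7.12 ± 2.08 CPM in the mPoA to 0.646 ± 0.467 CPM in the lateral septum (SD, n = 4), the lowest of all. Low levels were found in much of the forebrain, as in the nucleus accumbens shell (1.21 ± 0.471, SD, n = 4) and the medial septum (1.08 ± 0.278, SD, n = 4).

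**Figure D1:**
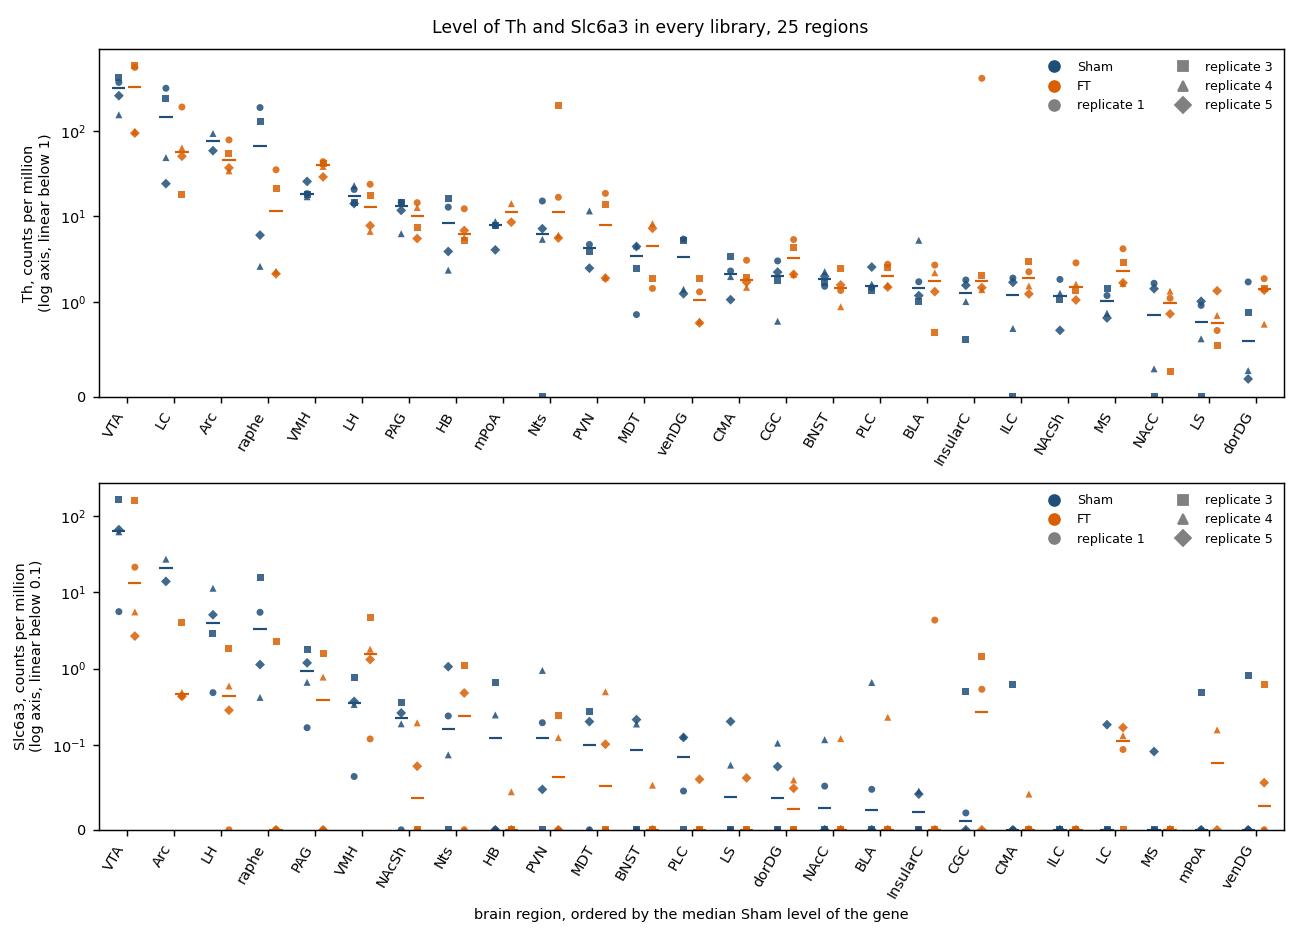
Level of Th (top) and Slc6a3 (bottom) in CPM on a log axis that turns linear near 0, for each of 25 regions ordered by the median Sham level. Each point is 1 library, blue for Sham and orange for FT, the marker gives the replicate number and bars are medians. Th was highest in the VTA and fell over a wide range of regions, Slc6a3 was near 0 outside about 6 regions, and the library labelled FT InsularC replicate 1 stands at 415 CPM of Th among values near 1.

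Slc6a3 followed a narrower pattern. In Sham VTA it reached 5.56, 165, 61.6 and 65.9 CPM in replicates 1, 3, 4 and 5, so that replicate 1, with 9 reads, was far below the others. The Arc held 27.0 and 13.8 CPM, and no Arc library overlapped the LH libraries, which held 0.484, 2.84, 11.2 and 5.06 CPM. The raphe held 5.45, 15.5, 0.419 and 1.13 CPM. As for Th, the Sham raphe libraries of replicates 1 and 3 were above those of replicates 4 and 5, whereas in the LH the higher Slc6a3 values were in replicates 4 and 5. The PAG stayed between 0.168 and 1.80 CPM and the VMH between 0.0628 and 0.769 CPM. In the other 19 regions no Sham library was above 1.06 CPM, and the 4 libraries of the infralimbic cortex held no read. The LC separated the genes. Its 4 Sham libraries held 263 to 5637 reads of Th and 0, 0, 0 and 2 reads of Slc6a3.

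Each region was then set against the mean of the other 24 in 1 edgeR quasi-likelihood fit over all Sham libraries, with the replicate number as a block and p-values adjusted by Benjamini-Hochberg over 17008 transcripts. A region was called higher at a fold of 2 or more and an adjusted p of at most 0.05. Th was called in 7 regions and Slc6a3 in 5. In the VTA, where 2.22% of transcripts were called higher, Th was 63.8-fold above the other regions (log2FC 6.00, SE 0.24, edgeR adjusted p = 1.0733e-35) and Slc6a3 was 311-fold above them (log2FC 8.28, SE 0.29, edgeR adjusted p = 2.2612e-38). Both genes were also called in the Arc, where 5.81% of transcripts were called, with log2FC values of 4.35 (SE 0.36) for Th and 6.63 (SE 0.39) for Slc6a3. In the raphe, with 7.63% of transcripts called, they were 3.74 (SE 0.31) and 4.96 (SE 0.45). In the LH, with 2.04% called, they were 1.89 (SE 0.34) and 4.57 (SE 0.37). The PAG gave smaller values of 1.14 (SE 0.39) and 2.06 (SE 0.56), with 5.07% of transcripts called. Neither PAG call held in DESeq2, without the block or without replicate 5, and that of Th also did not hold without replicate 1 or 3.

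Th alone was called in 2 regions. In the LC, where 8.38% of transcripts were called, Th was 27.5-fold above the other regions (log2FC 4.78, SE 0.27). In the VMH, with 1.93% called, its log2FC was 2.07 (SE 0.34), while that of Slc6a3 was 0.57 (SE 0.58, edgeR adjusted p = 0.708). No fold is given for Slc6a3 in the LC, where 3 of 4 libraries were at 0. Because every region enters the mean that the others are set against, these calls are not independent of each other.

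The same contrast in the FT libraries gave 6 regions for Th and 4 for Slc6a3, and InsularC was among them for both genes. Without the library labelled FT InsularC replicate 1, InsularC was no longer called, and the counts were 8 and 5. The raphe, called for both genes in Sham, had a log2FC of 1.02 for Th and 0.76 for Slc6a3 in those FT libraries. Only that of Th was called, with an edgeR adjusted p of 0.0486. The Nts was called for Th in FT, where the library of replicate 3 held 199 CPM and replicates 1, 4 and 5 held 16.8, 6.03 and 5.59 CPM.

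Over the 25 regions the Sham means of Th and Slc6a3 on the log2 scale had a Pearson r of 0.779 and a Spearman rho of 0.701, and the FT means had 0.798 and 0.671. Regions share their replicate numbers and many Slc6a3 means rest on a few reads, so this is a description. The FT values include the library labelled FT InsularC replicate 1 and were not computed without it. Of the 1843 other named transcripts, those whose Sham means were most like Th were Esyt1 (r = 0.806), Phlda3 (0.782), Slc6a3 (0.779), Atp8b3 (0.771) and Cbln1 (0.766). Those most like Slc6a3 were Npvf (r = 0.795), Th (0.779), Cga (0.736), Asah2 (0.679) and Tmem255a (0.667). Npvf, a neuropeptide of hypothalamic neurons, and Cga, the alpha subunit of pituitary glycoprotein hormones, are known for cells other than midbrain dopamine neurons.

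The ratio of Th to Slc6a3 reads within a library does not depend on its depth. Reads were not divided by transcript length, so a ratio compares libraries and not the abundance of the transcripts. In Sham VTA there were 66.8, 2.58, 2.52 and 3.94 Th reads per Slc6a3 read in replicates 1, 3, 4 and 5. Replicate 1 stood apart, on 9 reads of Slc6a3. Sham Arc had 3.47 and 4.26 Th reads per Slc6a3 read, Sham LH had 42.8, 5.09, 2.04 and 2.79, and Sham raphe had 34.6, 8.30, 6.20 and 5.36. In each of these 3 regions with a replicate 1 library (VTA, LH and raphe), replicate 1 had the most Th per Slc6a3. Setting the VTA against LH, raphe and Arc in an exact two-sided permutation test of the mean log2 ratio gave no difference past the threshold, with raw p-values of 0.857, 0.543 and 0.933. The smallest p that 4 against 4 libraries allow is 0.0286, and 4 against 2 allow 0.133. Together with the comparisons of FT and Sham below, 8 comparisons were made, and the adjusted p-values of these 3 were 0.933, 0.724 and 0.933.

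**Figure D2:**
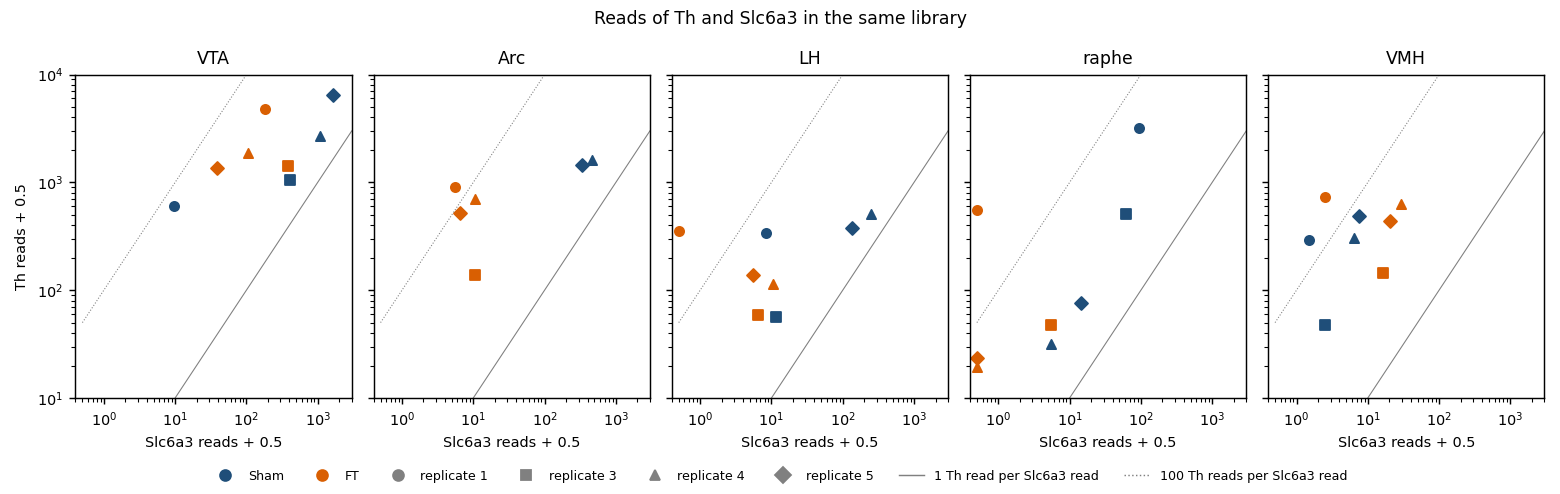
Reads of Th (vertical, log axis) against reads of Slc6a3 (horizontal, log axis) with 0.5 added to each, in every library of 5 regions. Blue is Sham, orange is FT, markers give the replicate number, the solid line marks 1 and the dotted line 100 Th reads per Slc6a3 read. In Arc the FT libraries sit far to the left of the Sham libraries at 5 to 10 Slc6a3 reads, and in raphe 3 of 4 FT libraries are at 0.

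The main comparison asks whether chronic fluoxetine changed either gene within a region. FT and Sham of each region were compared in an edgeR quasi-likelihood fit with the replicate number as a block. A transcript was called at a log2FC of at least 0.32 in either direction and an adjusted p of at most 0.1. Th passed the filter on low counts in all 25 regions and was called lower in 2 (raphe, Arc) and higher in 1 (mPoA). Slc6a3 passed it in 6 regions and was called lower in 3 (Arc, raphe, LH). In these 3 regions it passed through its Sham libraries, with at most 10 reads in any FT library, so that it had to differ there once tested and the count of 3 is a description. It was too low to be tested in the other 19. Neither gene was called in the VTA, where edgeR called no transcript lower (0% of 13955). At an unadjusted p under 0.05, 1792 of them passed, and DESeq2 called 56 lower. Without the block no region was called for either gene. That fit also filtered low counts more strictly, so that Slc6a3 was not tested in the raphe, VMH or PAG, but with the filter of the blocked fit kept the count was 0 for both genes as well. Leaving out replicate 4 or 5 ended most calls, as given with each gene.

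In the Arc, Slc6a3 was nearly gone from the FT libraries. Sham held 460 and 339 reads (27.0 and 13.8 CPM) in replicates 4 and 5. FT held 5, 10, 10 and 6 reads (0.436, 3.98, 0.486 and 0.433 CPM) in replicates 1, 3, 4 and 5. The groups did not overlap, on either scale. The fall was 44.1-fold (log2FC -5.46, SE 0.33, edgeR adjusted p = 0.00513), and both pairs showed it. Th fell less, from 93.6 and 58.9 CPM in Sham to 78.7, 55.0, 34.1 and 37.1 CPM in FT, with a log2FC of -1.06 (SE 0.21, edgeR adjusted p = 0.0274). The FT libraries of replicates 1 and 3 overlapped the Sham range for Th. In this region 10.2% of transcripts were called lower and 13.3% higher, so a call there is common. Since Sham replicates 1 and 3 have no library, the block leaves the test to replicates 4 and 5, 2 against 2, and it could not be fitted without either of them. The Arc was also the only region in which FT and Sham libraries of the same number did not deviate together (r = -0.08). Without the block the log2FC was -4.36 for Slc6a3 (edgeR adjusted p = 0.509) and -0.56 for Th (edgeR adjusted p = 0.592). Per Slc6a3 read there were 181, 13.8, 70.2 and 85.7 Th reads in FT, against 3.47 and 4.26 in Sham. This ratio was 15.2 times as high in FT on the log2 mean scale (exact permutation p = 0.133, adjusted p = 0.457, the smallest p that 4 against 2 libraries allow).

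In the raphe both genes were lower in FT within all 4 replicate numbers. Th went from 188 to 35.2 CPM in replicate 1, from 129 to 21.2 in replicate 3, from 2.60 to 2.28 in replicate 4 and from 6.04 to 2.13 in replicate 5. The drop in replicates 1 and 3 started from a level far above that of replicates 4 and 5, and the ranges of FT and Sham overlapped. The fitted fall of Th was 3.76-fold (log2FC -1.91, SE 0.33, edgeR adjusted p = 0.0411). Slc6a3 had 93, 61, 5 and 14 reads in Sham and 0, 5, 0 and 0 reads in FT. Its log2FC was -4.59 (SE 0.82, edgeR adjusted p = 0.0411), against 3.51% of transcripts called lower and 3.09% called higher in the raphe. Without the low-count filter the adjusted p of Slc6a3 was 1.2e-10, and without replicate 4 it was 0.161. The Th call held with each replicate left out, with adjusted p-values from 0.0237 to 0.0968. The ratio of Th to Slc6a3 reads, with 0.5 added to each, was higher in FT in 4 of 4 pairs and 6.76 times as high on the log2 mean scale (unpaired exact permutation p = 0.0571, adjusted p = 0.457, 4 against 4 libraries). With 1 or 0.1 added in place of 0.5 it was 4.10 or 22.2 times as high, since 3 FT libraries held no Slc6a3 read.

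In the LH only Slc6a3 was called. Its 8, 11, 251 and 136 Sham reads stood against 0, 6, 10 and 5 FT reads in replicates 1, 3, 4 and 5, or 0.484, 2.84, 11.2 and 5.06 CPM against 0, 1.84, 0.591 and 0.285 CPM. FT was lower in 4 of 4 pairs, by far the most in replicates 4 and 5. The log2FC was -3.42 (SE 0.61, edgeR adjusted p = 0.0909), where 0.136% of transcripts were called lower and 0.0884% higher. The adjusted p was 0.417 without replicate 4 and 0.297 without replicate 5. Th in the LH was 23.8 and 17.8 CPM in FT replicates 1 and 3 against 20.7 and 14.5 in Sham, and 6.67 and 7.80 in FT replicates 4 and 5 against 22.9 and 14.1. It was thus higher in FT in 2 pairs and lower in 2, with a log2FC of -0.55 (SE 0.31, edgeR adjusted p = 0.405). The ratio of Th to Slc6a3 reads, with 0.5 added to each, was higher in FT in 4 of 4 pairs of the LH and 6.26 times as high on the log2 mean scale (unpaired exact permutation p = 0.171, adjusted p = 0.457). Flipping signs within pairs in an exact test gave p = 0.125 in both the LH and the raphe, which is the smallest p that 4 pairs allow.

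**Figure D3:**
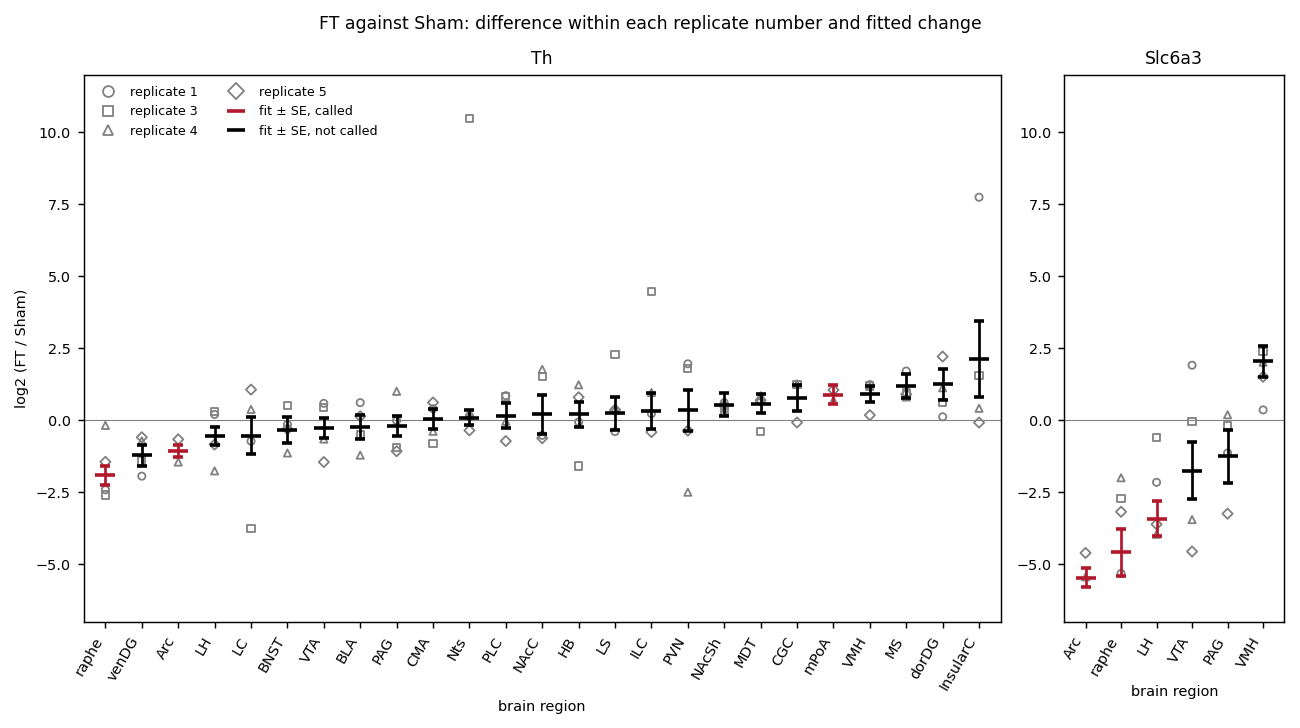
Difference between FT and Sham on the log2 scale for Th in 25 regions (left) and Slc6a3 in the 6 regions where it passed the low-count filter (right). Grey markers are the differences within each replicate number, with a small prior count, and bars are the fitted log2FC with its SE, red where called. The called values are raphe and Arc below 0 and mPoA above 0 for Th (the Nts pair of replicate 3, at 10.5, has a Sham library of 4586 reads), and Arc, raphe and LH below 0 for Slc6a3.

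In the VTA, the region with the most of both genes, the pairs disagreed. Th was 557, 579, 98.4 and 94.7 CPM in FT replicates 1, 3, 4 and 5, so that the FT group split more widely than Sham. FT was higher in replicates 1 and 3 and lower in replicates 4 and 5, and the log2FC was -0.27 (SE 0.35, edgeR adjusted p = 0.780). Slc6a3 was 21.2, 159, 5.51 and 2.66 CPM in FT, which is higher than Sham in replicate 1, close to it in replicate 3 and far lower in replicates 4 and 5. Across the 4 pairs the difference ran from -4.56 to 1.91 on the log2 scale. The fit gave a log2FC of -1.75 (SE 0.99, edgeR adjusted p = 0.478). Without the low-count filter the log2FC was -1.74 (edgeR adjusted p = 1.58e-05). The Sham library of replicate 1 here is the one that the library labelled FT InsularC matched. Without replicate 1 the VTA log2FC of Slc6a3 was -2.78 (edgeR adjusted p = 0.199) and that of Th was -0.59 (edgeR adjusted p = 0.472). Th reads per Slc6a3 read in FT were 26.2, 3.65, 17.8 and 35.6, and the ratio was 2.46 times that of Sham (exact permutation p = 0.429, adjusted p = 0.724).

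The VMH went the other way. Th was 43.7, 41.9, 38.4 and 29.0 CPM in FT against 18.5, 18.1, 17.0 and 25.7 in Sham, higher in 4 of 4 pairs and without overlap between the groups. Slc6a3 was 0.120, 4.62, 1.79 and 1.31 CPM in FT against 0.0628, 0.769, 0.338 and 0.371 in Sham, also higher in 4 of 4 pairs, on 2 to 29 reads in FT and 1 to 7 in Sham. The log2FC was 0.91 (SE 0.27) for Th and 2.04 (SE 0.54) for Slc6a3. Neither passed, with edgeR adjusted p-values of 0.294 and 0.292, in a region where 0% of transcripts were called higher. At an unadjusted p under 0.05, 1996 of 14467 transcripts of the VMH passed, both genes among them. DESeq2 called 388 transcripts higher there, Th among them (adjusted p = 0.0587). Most of the 9 listed markers of hypothalamic neurons that had a name were also higher in FT in the VMH. Tacr3 (log2FC -0.998) and Vip (log2FC -0.42) were lower. The summed level of 9 such markers was 1243, 27375, 296 and 410 CPM in FT replicates 1, 3, 4 and 5 against 499, 5496, 173 and 297 CPM in Sham, higher in 4 of 4 pairs, with a list median log2FC of 1.04 beside -0.05 over all transcripts. None of the 9 was called, among them Avp (2.35, SE 0.36) and Hcrt (1.53, SE 0.27), each at an edgeR adjusted p of 0.292. Their part in the Th and Slc6a3 values of the VMH was not tested.

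The difference between regions in the FT effect was tested as an interaction in joint edgeR fits. VMH, LH, Arc and raphe were each set against the VTA, and VMH against Arc. Of 10 such differences 1 was called. The FT effect on Slc6a3 in the VMH minus that in the Arc was 7.53 on the log2 scale (SE 0.63, edgeR adjusted p = 0.00419). Slc6a3 was the only one of 15091 transcripts called in that comparison (0.00663%). The corresponding value for Th was 2.02 (SE 0.44, edgeR adjusted p = 0.965). Against the VTA the values for Slc6a3 ran from -3.67 in the Arc to 3.82 in the VMH and that for Th was -1.59 in the raphe, with edgeR adjusted p-values of 0.573 or more. The VMH and Arc pair sets regions against each other whose effects were seen to run in opposite directions, and Slc6a3 passed the low-count filter mainly through Sham in the Arc and FT in the VMH. The value rests on replicates 4 and 5 of the Arc. It was 6.80 without replicate 4 (adjusted p = 1) and 7.98 without replicate 5 (adjusted p = 0.101).

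In the mPoA, Th was 14.1 and 8.55 CPM in FT replicates 4 and 5 and 7.80, 7.91, 8.71 and 4.06 CPM in Sham replicates 1, 3, 4 and 5. The groups overlapped by 1 library. The fit, in effect of 2 pairs, gave a log2FC of 0.89 (SE 0.33, edgeR adjusted p = 0.0847), with 5% of transcripts called higher in this region. The adjusted p was 0.427 in DESeq2 and 0.110 in edgeR without the low-count filter. Listed markers of other cells were also called in the mPoA. Of 9 hypothalamic markers 3 were called higher and 2 lower, where 4.83% of all transcripts were called lower. The higher ones were Npvf (log2FC 7.56, SE 0.58), Hcrt (3.31, SE 0.71) and Gal (1.38, SE 0.31). The lower ones were Vip (-2.15, SE 0.38) and Tacr3 (-0.99, SE 0.36). Cga, of pituitary hormones, was called higher (2.86, SE 0.51). Sncg, listed for midbrain dopamine neurons, was called lower (-1.08, SE 0.30). The part of these markers in the Th value was not tested. In the LC Th was 191, 17.8, 63.4 and 50.7 CPM in FT, lower than Sham in replicates 1 and 3 and higher in replicates 4 and 5 (log2FC -0.53, SE 0.65, edgeR adjusted p = 0.748). The FT LC library of replicate 3 stood apart in other genes too, with Gal, a peptide of noradrenaline neurons, at 4.80 CPM against 136 to 250 CPM in the other 3 FT libraries and choroid plexus markers summing to 322 CPM against 5743 to 7601 CPM. Without replicate 3 the log2FC of Th in the LC was 0.21 (edgeR adjusted p = 0.853). In InsularC the log2FC of Th was 2.11 (SE 1.33, edgeR adjusted p = 0.723), and 0.45 (SE 0.49, adjusted p = 0.876) without the library labelled FT InsularC replicate 1. In the other regions Th was not called. Among those with 4 pairs, all pointed the same way in the medial septum and dorsal dentate gyrus (FT higher, log2FC 1.19 and 1.24) and in the ventral dentate gyrus (FT lower, log2FC -1.22), with edgeR adjusted p-values of 0.253, 0.344 and 0.346. They did so too in the nucleus accumbens shell (FT higher, log2FC 0.54, SE 0.42, edgeR adjusted p = 0.540), by 0.31 to 0.61 on the log2 scale on 3 to 69 reads a library. In the dorsal dentate gyrus this rests on few reads, 3 to 22 in Sham and 4 to 28 in FT. In the ventral dentate gyrus Th was 5.43, 5.26, 1.40 and 1.24 CPM in Sham and 1.31, 1.88, 0.796 and 0.777 CPM in FT, so the drop was deepest in replicates 1 and 3, the libraries with the most Th. In the region labelled PVN the pairs pointed apart, from 4.69, 3.85, 11.6 and 2.47 CPM in Sham to 18.6, 13.7, 1.93 and 1.89 CPM in FT, higher in replicates 1 and 3 and lower in replicates 4 and 5 as in the VTA and LH. Over all 25 regions the fitted log2FC of Th was positive in 16 and negative in 9, and 7 had an unadjusted p under 0.05. Such p-values were common among all transcripts tested. They ran from 1050 of 14253 in the infralimbic cortex to 4881 of 15168 in the Arc, so the 7 is a description.

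Pairs were then counted by replicate number, among those in which FT and Sham together held at least 10 reads of the gene. Slc6a3 was lower in FT in 5 of 7 such pairs of replicate 4 and 6 of 7 of replicate 5. It was lower in 1 of 3 pairs of replicate 1, whose 2 higher pairs are the VTA and the library labelled FT InsularC, and in 3 of 4 of replicate 3. Th was higher in FT in 15 of 23, 10 of 17, 15 of 25 and 11 of 25 pairs of replicates 1, 3, 4 and 5. The replicate 1 count of Th includes that library and the pair of the cingulate cortex (CGC) that the fits left out. In the LH and VTA the falls of Slc6a3 were deepest in replicates 4 and 5. In the PAG, where Slc6a3 was not called (log2FC -1.25, SE 0.92, edgeR adjusted p = 0.589), it was 0.168, 1.80, 0.660 and 1.19 CPM in Sham and 0, 1.58, 0.772 and 0 CPM in FT.

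Of the wider catecholamine pathway, 8 of 24 listed genes had a name in the list used here, and the enzymes and vesicle transporters after Th had none. The cofactor of Th, tetrahydrobiopterin (BH4), is made by Pts and Spr, recycled by Qdpr and limited by Gchfr, which mediates feedback on the first enzyme of its synthesis. In the Arc 4 of these 4 genes were called higher, with log2FC from 0.88 (Qdpr) to 1.14 (Spr) and a list median of 1.01 beside 0.02 over all transcripts tested, in a region with 13.3% of transcripts called higher. In the raphe Gchfr was called higher (0.75, SE 0.18, edgeR adjusted p = 0.0666) and the other 3 were not. In LH, VMH and VTA none of the 4 was called by edgeR, with list medians of 0.67, 0.81 and 0.61. The BH4 median was above that of all transcripts in each of the 5 regions, which was not tested as a set. These genes have a name here because the study called them changed in these samples. Their calls and medians are thus not comparable with those over all transcripts. Among receptor and response genes, Drd2, the dopamine D2 receptor, was called in none of these 5 regions. Caly, which binds the D1 receptor, was called lower in the Arc (log2FC -1.10, SE 0.34). Ppp1r1b (DARPP-32) and Adora2a, both abundant in striatal neurons, were called higher in the LH (1.11, SE 0.18, and 1.63, SE 0.25).

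Markers of the cell types that the punches could hold moved beside these results. Of 17 listed markers of midbrain dopamine neurons 4 had a name (Sncg, Drd2, Cck, Slc17a6), and none of the 4 was called in VTA, raphe, LH or VMH. Their summed level in the VTA was 218 to 546 CPM in Sham and 231 to 539 CPM in FT. In the raphe it was 289 to 963 CPM in Sham and 242 to 736 CPM in FT. In the Arc Sncg was called lower (log2FC -1.01, SE 0.21) and Cck higher (1.77, SE 0.52). Hcrt, Oxt and Avp, peptides of other hypothalamic nuclei, were called higher in the Arc (log2FC 3.07, 3.62 and 3.15), where 5 of 9 hypothalamic markers were called higher and 1 lower against 13.3% and 10.2% of all transcripts. Npvf was 16.3 and 30.0 CPM in Sham VTA replicates 4 and 5 and 1.31 and 1.33 CPM in FT, and it was 51.9 and 17.9 CPM in Sham replicates 1 and 3 and 83.1 and 42.5 CPM in FT. Npvf in the VTA was thus higher in FT in replicates 1 and 3 and lower in replicates 4 and 5. Cga in the VTA was 17.3, 7.34, 6.54 and 41.4 CPM in Sham replicates 1, 3, 4 and 5. It was 0.817, 0.412, 2.31 and 2.87 CPM in FT, lower in each replicate number (log2FC -3.22, SE 0.51, not called). Cga was 187 and 136 CPM in FT raphe replicates 4 and 5 and at most 9.73 CPM in the other 6 raphe libraries. Htr1a, a serotonin receptor found on raphe serotonin neurons, was called lower in the raphe (log2FC -1.57, SE 0.46), and also in the Arc (-4.23, SE 0.99) and mPoA (-3.22, SE 1.19). In VTA, VMH and LH its values were -1.85, -1.43 and -1.32 and not called. Levels of Htr1a were low, at 0.805 to 5.08 CPM in Sham raphe and 0.185 to 2.25 CPM in FT raphe. In the Arc it was 0.587 and 0.816 CPM in Sham replicates 4 and 5. FT Arc held 0.0871, 2.39, 0.0486 and 0 CPM in replicates 1, 3, 4 and 5, so replicate 3 lay above Sham. Oligodendrocyte markers were called in none of 8 in raphe, VTA or VMH and in 1 of 8 in the LH. In the Arc 5 of 8 were called (2 higher, 3 lower). Astrocyte markers were called in 5 of 6 in the Arc (2 higher, 3 lower). In the raphe 2 of 6 were called, each of them lower, where 3.51% of all transcripts were called lower. Gal, listed with noradrenaline and hypothalamic neurons, was called higher in the raphe (log2FC 1.06, SE 0.19) and Arc (0.87, SE 0.18). In the Arc 1 of 4 choroid plexus markers was called higher and 1 of 2 microglia markers lower, and none of either in the VTA, raphe, LH or VMH. Defining markers of dopamine, noradrenaline and serotonin neurons such as Pitx3, Dbh and Tph2 had no name in the list and were not analysed here, so the labels of the VTA, LC and raphe could not be checked against them. The named markers come from transcripts the study called changed, so their counts of calls are not comparable with the shares over all transcripts. The part of these markers in the Th and Slc6a3 values was not tested.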

How the data were processed

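Punches of each region from 10 rats were pooled into 1 sample, and stranded libraries were read as paired ends of 76 bases. The authors aligned reads with STAR to rn5 and counted them with HTSeq on Ensembl transcripts (versions not given in the sources used here), and deposited raw counts for 29188 transcripts. A median of 40.3% of reads fell on no feature and 5.52% were ambiguous, and these were left out. Groups came from the sample labels. Names came from the supplementary list, which was held only in part (1844 named transcripts), so enzymes and transporters missing from it were not analysed here. Members and gene lists were chosen with earlier results of these data known. Genes named beside Th and Slc6a3 came from lists of pathway genes and cell type markers, and by the 5 highest correlations over regions. The fold changes in that list were not used.

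Counts were tested in R 4.3.3 with edgeR 4.0.16 (quasi-likelihood test, TMM, filterByExpr with a minimum count of 10 and total of 15), with the replicate number as a block, in each region alone. The study removed 2 CGC replicates as outliers without naming them in the text used here, and the CGC pair of replicate 1 was left out in their place (Th was not called in CGC with or without it, at log2FC 0.83 and 0.78). Same-numbered FT and Sham samples deviated together, with every pair over 0.1 in 24 of 25 regions and a median correlation of 0.669, which is where the block comes from besides the parallel handling that the study states. Samples are pools, so p-values do not measure the spread between animals. In the blocked fits of FT and Sham they measure how the difference varies among numbered pairs of pools. Regions of a replicate may come from the same animals, so the libraries of the fit over all Sham regions may not be independent. For levels, libraries were scaled together (17302 transcripts, TMM factors 0.2801 to 2.5). Interactions used joint fits of 2 regions, and ratios an exact permutation test (scipy 1.17.1). The scripts of the FT against Sham, region and interaction fits were each run on simulated counts with known changes. No such run was made for the ratio tests, the library checks or the unblocked fit that kept the filter. Alternatives were DESeq2 1.42.0, median-ratio size factors, no low-count filter, no block (also with the filter of the blocked fit), an adjusted p of 0.05, other pseudocounts and leaving out each replicate. The depth per sample is given above, and at a few reads, as for Slc6a3 outside 6 regions, counting error alone is large. Intervals of counting error were not computed.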

Additional observations from a re-analysis of the deposited data

Results flagged for a closer look

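In groups of 4 libraries, a library was singled out where its gap to the nearest other relative to the range of its group exceeded Dixon's 95% critical value. This held in 5 of 27 groups of Th or Slc6a3. The groups were chosen from the regions described above, with InsularC and Nts among those of Th, and members were chosen with earlier results known. The count is thus not comparable with the 1 in 20 that chance gives. Th stood at 415 CPM in the library labelled FT InsularC replicate 1 and at 199 CPM in FT Nts replicate 3. Slc6a3 stood at 159 CPM in FT VTA replicate 3, at 3.98 CPM in FT Arc replicate 3 and at 2.25 CPM in FT raphe replicate 3. In the raphe the other 3 libraries held 0 reads, so that any read gives the full gap, and the chance of 1 in 20 does not hold for counts this low. Of these 5 libraries 4 carry replicate number 3. In replicate 3 the 50 most abundant transcripts took a median of 68.2% of reads, against 34.8%, 29.9% and 28.3% in replicates 1, 4 and 5, and the part of this in the values was not tested.

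The FT effect on Slc6a3 was called different in the VMH and the Arc, at 7.53 on the log2 scale for VMH minus Arc (edgeR interaction test, SE 0.63, adjusted p = 0.00419), with FT higher in 4 of 4 VMH pairs and lower in 2 of 2 Arc pairs. This pair was chosen with earlier results of these data known and sets regions with opposite directions against each other, and the VMH held 1 to 7 reads in Sham. The difference did not pass without replicate 4 (adjusted p = 1), without replicate 5 (adjusted p = 0.101) or without the replicate block (6.78, adjusted p = 1).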

How the results depend on the processing

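Without the replicate block Th was called in 0 regions in place of 3 and Slc6a3 in 0 in place of 3, the pathway lists held 0 calls in place of 56, and 0 in place of 1 difference between regions was called. That fit also filtered low counts more strictly. With the block left out but the filter of the blocked fit kept, the counts were again 0 for Th, 0 for Slc6a3 and 0 for the lists. Leaving out 1 replicate gave 1 to 3 regions for Th, 0 to 3 for Slc6a3, 3 to 98 list calls and 0 to 1 differences between regions. Without replicate 4 or 5 the Arc and mPoA could not be fitted, which alone removes 2 of the Th calls and 1 of the Slc6a3 calls. The list calls were 167 in DESeq2, 224 without the low-count filter and 35 at an adjusted p of 0.05, and 4 differences between regions were called without that filter. Calls over all transcripts moved with the setting too. In the VTA 0 were higher and 0 lower in the main fit, 193 and 56 in DESeq2 and 426 and 162 without the filter. In the Arc 2020 and 1543 in the main fit became 512 and 309 in DESeq2. The list counts are of selected genes and show nothing particular to the lists. Regions called higher in Sham stayed within 6 to 8 for Th and 4 to 6 for Slc6a3, and 0 ratio comparisons passed in the unpaired exact tests. None passed in an exact test with signs flipped within pairs either, in which 4 pairs cannot go below p = 0.125.

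Of 384 values of 44 single results under alternatives, 335 kept direction and side of the threshold, 35 lost and 6 gained a call and 8 changed sign. The sign changes were all of results that were not called. Th in the VTA went to 0.12 without the replicate block, to 0.13 with the filter of the blocked fit kept, and ran from -0.59 to 0.065 with 1 replicate left out, and Th in the LC ran from -1.16 to 0.21. With 1 replicate left out, the log2 ratio in Sham ran from -0.043 to 0.48 for VTA minus LH and from -0.38 to 1.16 for VTA minus Arc, negative without replicate 1 in both, and was -0.29 for VTA minus Arc within the 2 pairs, and the FT effect on Th in LH minus VTA ran from -0.52 to 0.033. The cause of these changes was not tested. Omitting the library labelled FT InsularC replicate 1, the unblocked fit with the filter of the blocked fit, and the paired ratio test were chosen after seeing the data. Depth limits Slc6a3 outside 6 regions, where most libraries held few reads or none.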
